A study of Mus musculus with 6 samples.

Results

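The 10 genes described here, Dusp4, Dusp5, Dusp6, Spry1, Spry2, Spry4, Spred1, Spred2, Etv4 and Etv5, are the classical feedback genes of the ERK pathway. They were found by matching the RefSeq accession of each non-control probe to a gene table, which gave 11 probes for the 10 genes among 55681 probes. All 10 were among the 25899 features tested. J1 mouse embryonic stem cells were kept for 24 h with SB431542 at 3 µM (3 arrays) or with DMSO, its solvent (3 arrays). J1 is a line from the inner cell mass of strain 129S4/SvJae, and both groups were grown without feeder cells on gelatin, in serum replacement medium with the cytokine LIF. Each sample was hybridised to a 1-colour Agilent array labelled with Cy3. SB431542 blocks the kinase activity of ALK4, ALK5 and ALK7, the type I receptors for Nodal, activin and TGF-beta. These receptors are not part of the ERK cascade, so the comparison asks how ERK feedback transcripts stood once the Nodal and activin input was blocked. Phosphorylated ERK was not measured here.

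Growth factors such as FGF4 activate receptor tyrosine kinases, and the signal then passes through Ras, Raf and MEK to the ERK kinases. Active ERK drives transcription of its own inhibitors, so the levels of these transcripts are widely read as a record of pathway output. In mouse embryonic stem cells FGF and ERK signalling prepares cells to leave the naive state, while LIF opposes this. The feedback acts at several points. Sprouty proteins (Spry) restrain the step between receptor and Ras or Raf, Spred proteins act on Ras through neurofibromin, and the dual-specificity phosphatases (Dusp) remove the activating phosphates from MAP kinases. Etv4 and Etv5 are ETS transcription factors of the PEA3 family that carry the FGF signal to target genes.

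Promoter sequences from RefSeq (build GRCm38.p6) cover 250 bases before to 50 bases after a gene start, and 8 such sequences were used, for Dusp5, Dusp6, Spry1, Spry2, Spred1, Spred2 and Etv5 (2 starts). Dusp4 and Etv4 had no sequence under their symbols. The chromosome of Spry4 was left out of the member set, though not of all promoters, so the counts below cover only part of the set. Both strands were searched for CGGAAG and AGGAAG, which hold the GGAA core that ETS factors such as Etv4 and Etv5 recognise, and for the AP-1 motif TGANTCA, the CRE motif TGACGTCA, the SMAD-type motif CAGACA and the GC box GGGCGGG. The first 2 motifs differ in their first base, so no site matches both. The 8 sequences held 57.0% to 74.0% G and C, against a median of 52.7% for all promoters. The shares of all promoters given below were not matched for this. Of the 8 sequences, 3 held CGGAAG, against 16.9% of all 32851 promoters of that length, and 4 held AGGAAG, against 35.4%. Matches to TGANTCA, TGACGTCA and CAGACA numbered 0 of 8, against 7.8%, 1.8% and 21.0% of all promoters, and 2 of 8 held GGGCGGG, against 25.6%. Dusp6 and Spred2 are shown because both hold CGGAAG and AGGAAG while Dusp6 fell and Spred2 did not pass the test, and Spry2 is shown as a sequence with neither. Capitals mark matches on either strand.
Dusp6, chr10:99262981-99263280, plus strand: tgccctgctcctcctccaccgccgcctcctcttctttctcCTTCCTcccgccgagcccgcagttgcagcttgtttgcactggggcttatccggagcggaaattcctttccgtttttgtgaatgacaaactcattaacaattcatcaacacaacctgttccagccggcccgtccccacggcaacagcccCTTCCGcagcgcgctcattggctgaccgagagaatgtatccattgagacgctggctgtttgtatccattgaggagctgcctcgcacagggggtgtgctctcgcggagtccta
Spred2, chr11:19924192-19924491, plus strand: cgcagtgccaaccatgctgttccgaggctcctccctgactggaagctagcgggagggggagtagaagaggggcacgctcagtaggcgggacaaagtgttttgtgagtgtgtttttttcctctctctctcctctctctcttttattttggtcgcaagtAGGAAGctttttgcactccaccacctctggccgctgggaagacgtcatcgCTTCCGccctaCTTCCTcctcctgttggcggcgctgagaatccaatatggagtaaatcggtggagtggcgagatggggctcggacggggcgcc
Spry2, chr14:105896770-105897069, minus strand: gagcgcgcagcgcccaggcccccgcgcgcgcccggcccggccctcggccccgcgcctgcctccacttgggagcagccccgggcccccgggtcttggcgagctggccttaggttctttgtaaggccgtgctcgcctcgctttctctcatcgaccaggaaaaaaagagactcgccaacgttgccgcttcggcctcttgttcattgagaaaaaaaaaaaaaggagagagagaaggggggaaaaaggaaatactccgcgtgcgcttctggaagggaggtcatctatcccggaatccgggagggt
In Dusp6 the CGGAAG match begins 62 bases and the AGGAAG match 210 bases before the gene start. In Spred2 the CGGAAG match begins 43 bases before the start, with AGGAAG matches at 93 and 32 bases before it. These matches describe the letters only, and binding was not measured.

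Levels are given as normalised signal, the processed signal of a probe divided by its array's 75th percentile, so that 1 marks that percentile on every array. Log2 changes are SB431542 minus DMSO, with standard errors from limma, and Benjamini-Hochberg adjusted p-values over all 25899 features. A threshold of 0.05 applies, and "rose" and "fell" are kept for genes past it. Before scaling, that percentile lay between 514 and 640 units in SB431542 arrays and between 606 and 609 in DMSO arrays. SB431542 replicate 3 was the only array on slide 2, with its own scan, so that this array and its slide cannot be told apart. All 10 embryonic stem cell markers examined were well above background on all 6 arrays, and their summed signal was 518 to 569 in SB431542 and 659 to 679 in DMSO. Dppa5a alone read 256 to 288 in SB431542 and 368 to 396 in DMSO, which is most of that gap. Of 10 fibroblast markers, 5 were well above background on all arrays and Postn, Lum and Twist2 on none. The summed fibroblast signal was 2.01 to 2.19 in SB431542 and 2.46 to 2.62 in DMSO, and that of 8 primitive endoderm markers was 1.98 to 2.15 in SB431542 and 2.14 to 2.24 in DMSO. The part of cell composition in the results below was not tested. The inhibitor's effect was large on Nodal targets, of which 8 of 8 fell, among them the Nodal antagonist gene Lefty2 with a log2 change of -4.85 ± 0.105 (SE).

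Of the 10 ERK feedback genes, Dusp4 rose, Dusp6 fell and the other 8 did not pass the test. That is 20% of the genes, set against 12.6% of all features tested, with 5.19% higher and 7.39% lower. The median log2 change of the 10 genes was 0.02, and that of all features was 0.02. The values of the groups did not overlap for 4 of the 10 genes, Dusp4, Dusp6, Spry1 and Spry4, while 36% of all features showed no overlap. Both shares of the feedback genes are close to what the whole array gave. All 10 genes were well above background on all 6 arrays, so dimness did not remove any of them from the test.

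**Figure D1:**
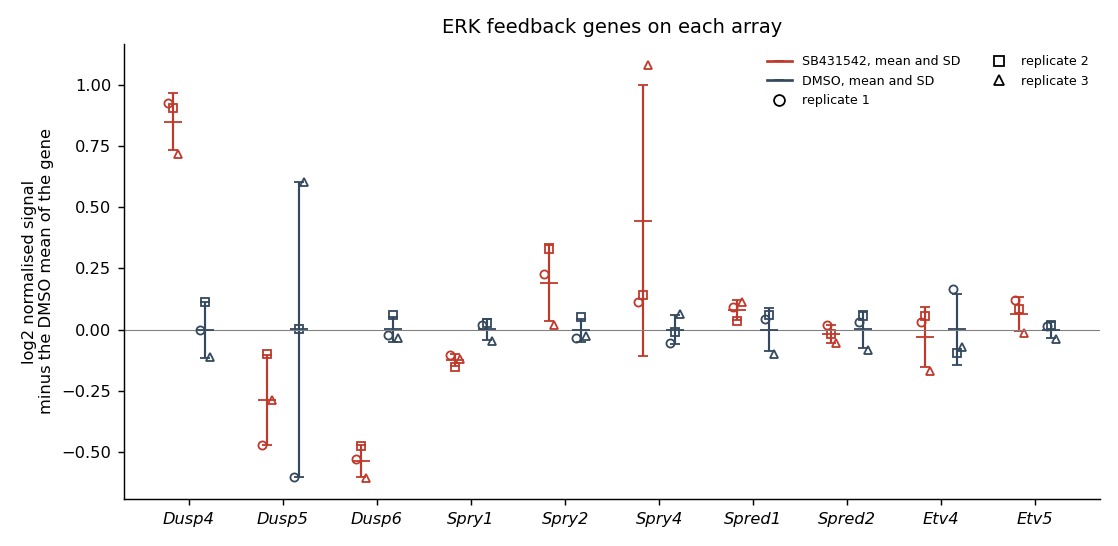
Log2 normalised signal of each ERK feedback gene on each array, minus the gene's DMSO mean, with SB431542 left of DMSO, symbols for replicates 1 to 3, and bars for the mean and SD (n = 3 per group). The SB431542 points of Dusp4 lie above and those of Dusp6 below all DMSO points, and Spry4 has 1 high SB431542 point, replicate 3.

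The phosphatase genes held both changes. Dusp4 encodes a nuclear phosphatase that acts on ERK and also on JNK. Its normalised signal was 0.805, 0.792 and 0.696 in the 3 SB431542 arrays, against 0.423, 0.458 and 0.391 in the 3 DMSO arrays. Every SB431542 array stood well above the highest DMSO array, and the spread was alike in both groups (SD 0.115 on the log2 scale in each). The log2 change was 0.85 ± 0.09 (SE, 3 arrays per group, limma adjusted p = 0.0036), a 1.80-fold rise with a 95% interval of 0.63 to 1.07 on the log2 scale. Only 2.9% of the features tested had a larger change in either direction. As in any bulk sample, a higher share of cells with the transcript and more transcript per cell cannot be told apart.

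Dusp6 encodes a cytoplasmic phosphatase with a strong preference for ERK, and is the member most often used as an FGF and ERK readout. Its normalised signal was 7.32, 7.60 and 6.93 in SB431542 arrays, against 10.4, 11 and 10.3 in DMSO arrays. The groups were again fully apart, with every SB431542 array low. The log2 change was -0.54 ± 0.06 (limma adjusted p = 0.00457), which leaves 69.0% of the DMSO level, and 8.2% of features had a larger change.

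Dusp5 encodes a nuclear phosphatase specific for ERK. Its normalised signal was 0.0756, 0.0976 and 0.0857 in SB431542 arrays, against 0.0689, 0.105 and 0.159 in DMSO arrays. The DMSO arrays alone spanned more than the SB431542 arrays did, with an SD of 0.60 on the log2 scale that only 1.4% of features exceeded in DMSO. The log2 change was -0.29 ± 0.30 with a 95% interval of -1.03 to 0.45, so neither a fall of the size seen for Dusp6 nor no change at all was distinguishable. Without DMSO replicate 3 the change was 0.02, and without DMSO replicate 1 it was -0.59, neither past the threshold.

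The changes of Dusp4 and Dusp6 had opposite signs. Taking the log2 difference of the pair on each array and setting its DMSO mean at 0, the SB431542 arrays ran from 1.33 to 1.46 and the DMSO arrays from -0.08 to 0.05. The difference between the 2 log2 changes was 1.39 ± 0.05 (SE over arrays). An exact permutation test gave p = 0.1, the smallest that 3 against 3 arrays allow, and 0.16 after adjustment over the 8 pairs compared within subfamilies.

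None of the Sprouty genes passed (0 of 3). Spry1 had a normalised signal of 1.80, 1.74 and 1.78 in SB431542 arrays, against 1.96, 1.97 and 1.87 in DMSO arrays. The groups did not overlap, and the gap was small, with a log2 change of -0.12 ± 0.05 (limma adjusted p = 0.181) and a 95% interval of -0.25 to 0.00. Spry2 had a normalised signal of 1.55, 1.66 and 1.34 in SB431542 arrays, against 1.29, 1.37 and 1.30 in DMSO arrays. Here SB431542 replicates 1 and 2 lay above all DMSO arrays and replicate 3 within their range. The log2 change of Spry2 was 0.19 ± 0.09 (limma adjusted p = 0.233), and without SB431542 replicate 3 it was 0.28 with an adjusted p of 0.0503.

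Spry4 is a member whose value rests largely on a single array. Its normalised signal was 0.501, 0.512 and 0.982 in SB431542 arrays, against 0.446, 0.461 and 0.484 in DMSO arrays. Replicates 1 and 2 stood just above the DMSO arrays, and replicate 3, on slide 2, stood far above the rest. The log2 change over all arrays was 0.45 ± 0.27 (limma adjusted p = 0.336), and 0.13 without replicate 3 (adjusted p = 0.223). Replicate 3 exceeded the mean of the other two SB431542 arrays by 0.95 on the log2 scale, a gap larger than that of all but 1.9% of features. The other 9 genes had gaps of -0.26 to 0.05 on this array, so the high reading was not shared by the set. The part of the slide in this reading was not tested.

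Among Sprouty genes, the changes of Spry1 and Spry4 differed by -0.57 ± 0.32 and those of Spry1 and Spry2 by -0.31 ± 0.10, with no overlap between groups in either pair. For Spry2 and Spry4, whose difference was -0.26 ± 0.41, the groups overlapped. The exact permutation p was 0.1 for the first 2 pairs (adjusted 0.16) and 1 for the third. Without SB431542 replicate 3 the Spry1 and Spry4 difference was -0.26, and the Spry2 and Spry4 difference changed sign to 0.15.

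The Spred genes and the PEA3 factors gave no call. Spred1, the partner that brings neurofibromin to the membrane, had a normalised signal of 2.92, 2.80 and 2.96 in SB431542 arrays, against 2.82, 2.85 and 2.55 in DMSO arrays. Spred2 had 2.74, 2.67 and 2.60 in SB431542 arrays, against 2.76, 2.81 and 2.55 in DMSO arrays. The groups overlapped for both, with log2 changes of 0.08 ± 0.07 and -0.02 ± 0.06 (limma adjusted p = 0.464 and 0.872). The 2 changes differed by 0.10 ± 0.04 (exact permutation p = 0.1, adjusted 0.16), without overlap between groups.

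Etv4 was the only member with 2 probes. The brighter probe read 24.0, 24.4 and 20.9 in SB431542 arrays, against 26.4, 22 and 22.4 in DMSO arrays, and the second read 5.87, 5.75 and 5.26 against 6.23, 5.67 and 5.55. Both probes placed the groups across each other, with log2 changes of -0.03 ± 0.10 and -0.05 ± 0.08. Etv5 had a normalised signal of 81.3, 79.3 and 74.0 in SB431542 arrays, against 75.6, 75.9 and 72.9 in DMSO arrays, and a log2 change of 0.06 ± 0.06 (limma adjusted p = 0.526). The interval for Etv5 ran from -0.08 to 0.21, and the changes of Etv4 and Etv5 differed by -0.09 ± 0.09 (exact permutation p = 0.5, adjusted 0.667).

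An adjusted p that misses 0.05 does not show that a level stayed the same, and the 95% intervals say how large a change could have gone unseen. Of the 8 genes that did not pass, 6 had intervals that lay wholly within 0.5 on the log2 scale on either side of 0, a 1.41-fold change. These were Spry1, Spry2, Spred1, Spred2, Etv4 and Etv5. The same held for 64.8% of all features. Dusp5 and Spry4 were the other two, with Spry4 running from -0.21 to 1.10. Spred2 and Etv4 had smaller changes than 92.5% and 88.5% of features.

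**Figure D2:**
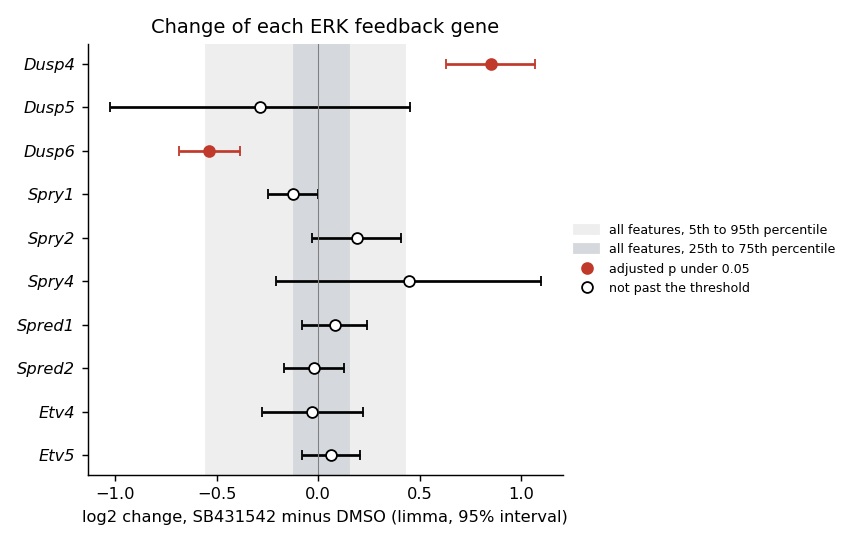
Log2 change of each ERK feedback gene, SB431542 minus DMSO, with its 95% interval from limma (3 arrays per group), over bands for the 5th to 95th (-0.55 to 0.43) and 25th to 75th (-0.12 to 0.15) percentiles of all 25899 features. Dusp4 and Dusp6 are the filled points past the threshold, and the intervals of Dusp5 and Spry4 are the widest.

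The calls of Dusp4 and Dusp6 held in every setting computed. Leaving out single arrays gave log2 changes of 0.79 to 0.92 for Dusp4 and of -0.57 to -0.50 for Dusp6, and over all 17 alternatives the highest limma adjusted p was 0.0223 for Dusp4 and 0.0288 for Dusp6. On slide 1 alone, without SB431542 replicate 3, the adjusted p was 0.00675 for Dusp4 and 0.0115 for Dusp6. No other member passed in any setting.

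**Figure D3:**
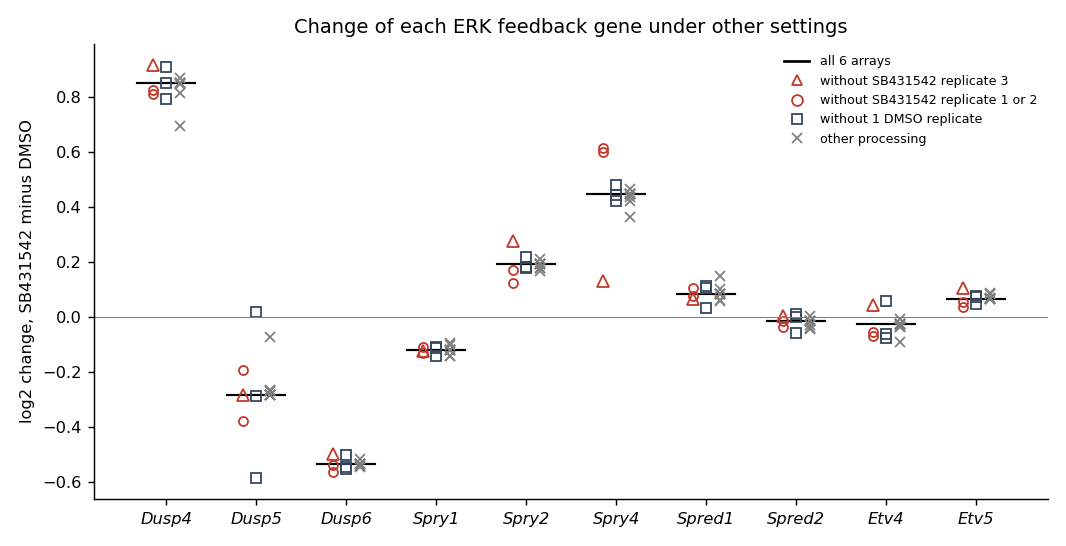
Log2 change of each ERK feedback gene with all 6 arrays (black line), without 1 array (red for SB431542, blue for DMSO) and under other processing (grey crosses). Dusp4 stays between 0.69 and 0.92 and Dusp6 between -0.57 and -0.50, while Spry4 drops to 0.13 without SB431542 replicate 3 and Dusp5 spans -0.59 to 0.02.

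Other genes of the pathway give the setting of these values. The counts of each list below stand beside 5.19% of all features higher and 7.39% lower. Of the 7 other MAP kinase phosphatase genes, 1 rose and 1 fell. Dusp9, a cytoplasmic ERK phosphatase closely related to Dusp6, had a normalised signal of 6.12, 6.16 and 5.86 in SB431542 arrays, against 8.15, 8.16 and 7.81 in DMSO arrays. Every SB431542 array lay below every DMSO array, and Dusp9 fell with a log2 change of -0.41 ± 0.05 (limma adjusted p = 0.00628). Dusp8, which acts on JNK and p38, rose by 0.405 ± 0.057, while its second probe changed by 0.22 ± 0.15. No gene of this list was called higher (0 of 7) under normexp background correction, when probes of a gene were averaged, with an intensity trend in limma or with the replicate block. The phosphatases of the immediate early response, Dusp1 (-0.16 ± 0.06) and Dusp2 (0.19 ± 0.07), did not pass.

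Among 10 tested genes of other feedback regulators of receptor tyrosine kinases, 1 rose and 2 fell. Il17rd, also known as Sef, which holds active MEK and ERK in the cytoplasm, had a normalised signal of 2.58, 2.51 and 2.67 in SB431542 arrays, against 6.33, 6.41 and 6.27 in DMSO arrays. The groups lay far apart, and its log2 change of -1.29 ± 0.05 (limma adjusted p = 0.000217) was larger in size than that of any of the 10 genes. Etv1, the third PEA3 factor beside Etv4 and Etv5, had 14.3, 12.8 and 12.4 in SB431542 arrays, against 17.8, 18.0 and 18.3 in DMSO arrays, with a log2 change of -0.46 ± 0.07 (limma adjusted p = 0.0114). Its second probe changed by -0.69. The adjusted p of Etv1 was 0.0546 and 0.0558 without DMSO replicates 2 and 3. Lrig1, a repressor of receptor tyrosine kinases, rose by 0.41 ± 0.06, with adjusted p of 0.0532 and 0.0528 without the same arrays. The second probe of Lrig1 changed by 0.595 (limma adjusted p = 0.00441 with each probe tested on its own). Flrt3, an FGF receptor partner, changed by 0.47 ± 0.12 (limma adjusted p = 0.0523), and by 0.55 without SB431542 replicate 3 (0.0445). Its other 2 probes changed by 0.65 and 0.71. Both were past the threshold when each probe was tested on its own (limma adjusted p = 0.00489 and 0.0385).

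Of 15 tested transcripts that respond to ERK without being its feedback inhibitors, 7 fell and 0 rose, with a median log2 change of -0.33. Of the 15, 10 had an unadjusted limma p under 0.05, against 7161 of all 25899 features. Egr1, an immediate early transcription factor, had a normalised signal of 0.584, 0.681 and 0.683 in SB431542 arrays, against 2.05, 1.98 and 2.10 in DMSO arrays. The receptor kinase gene Epha2 changed by -2.13 ± 0.08, Myc by -1.04 ± 0.07 and Fos by -0.63 ± 0.05, all past the threshold. Of the falls, Ccnd1, a cyclin gene, and the transcription factor gene Maff did not pass without each DMSO array in turn (adjusted p = 0.0544 to 0.0692 for Ccnd1 and 0.102 to 0.124 for Maff), nor Maff without SB431542 replicates 1 and 2 (0.0568 and 0.0686). Both are named after their values were seen. Without SB431542 replicate 2, 1 gene of this list rose, the immediate early gene Ier3 (log2 change 0.56, limma adjusted p = 0.035, against 0.40 over all arrays), which is named after its values were seen. Many of these genes also answer to inputs other than ERK.

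Upstream, FGF ligand genes fell and the core cascade gave no call. Of 12 tested FGF ligand and receptor genes, 2 rose and 6 fell. Fgf4, the main FGF ligand of embryonic stem cells, had a normalised signal of 42.4, 44.5 and 42.6 in SB431542 arrays, against 54.6, 57.2 and 55.8 in DMSO arrays, with a log2 change of -0.37 ± 0.05 (limma adjusted p = 0.00855). Fgf8 changed by -1.585 ± 0.075, and Fgf5, not well above background on any SB431542 array, was at least 2.53-fold lower, a bound set against the lowest signal well above background. Fgf10 and Fgf15 fell, and 1 of 3 SB431542 arrays read each well above background. With probes required to be well above background on all 6 arrays the list held 3 falls. The receptor gene Fgfr3 rose by 0.62 ± 0.09 and Fgfr2 by 0.43 ± 0.08, while the second probe of Fgfr3 changed by 0.10 ± 0.11 and that of Fgfr2 by 1.33 ± 0.08. The call of Fgfr2 was lost without each DMSO array in turn and without SB431542 replicate 3 (adjusted p = 0.0504 to 0.0891), which leaves 1 rise. Fgf4, Fgfr2 and Fgfr3 were named after their values were seen.

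Of 20 genes of the Ras-ERK cascade, among them the adaptor gene Grb2, none passed limma's test (0 of 20). Their log2 changes ran from -0.22 to 0.22, and 3 had an unadjusted limma p under 0.05, against 7161 of all 25899 features. Rps6ka1, which encodes an ERK-activated kinase, came closest at 0.22 ± 0.06 (limma adjusted p = 0.0571). Of 9 genes of the JNK and p38 cascade, 2 rose, Map2k6 by 0.41 ± 0.07 and Mapk13 by 0.34 ± 0.07, both kinases of the p38 arm. The call of Map2k6 was lost without DMSO replicates 2 and 3 and SB431542 replicates 1 and 2 (adjusted p = 0.0516 to 0.0724), and that of Mapk13 without any array but SB431542 replicate 3 (0.0568 to 0.111). Of 11 other ETS factor genes, 1 rose, the repressor Elk3 by 0.47 ± 0.06.

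**Figure D4:**
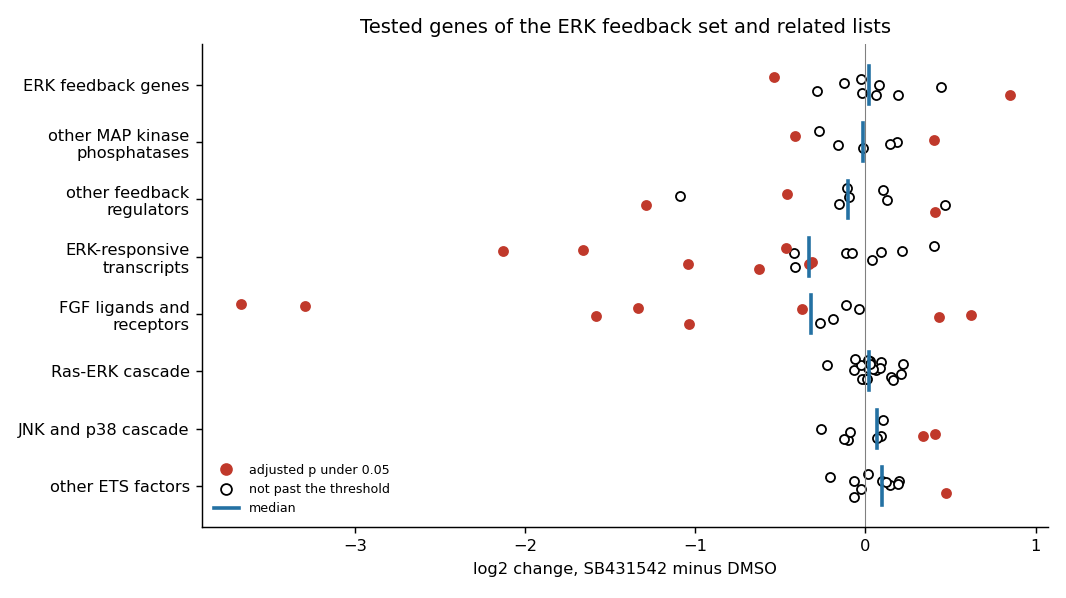
Log2 change, SB431542 minus DMSO, of every tested gene of the ERK feedback set and of related lists, with filled points past the threshold and blue lines at the medians. The ERK feedback genes centre on 0.02, while ERK-responsive transcripts (median -0.33) and FGF ligands and receptors (median -0.32) extend far below 0.

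Of 8 genes that rise in embryonic stem cells when MEK is inhibited, 2 rose and 2 fell. Klf2, a naive pluripotency factor, rose by 0.44 ± 0.055 and Tfcp2l1 by 0.43 ± 0.07, while Tbx3 changed by -0.68 ± 0.05 and Nr0b1 by -0.39 ± 0.06. Klf2 had a normalised signal of 58.6, 59.0 and 58.6 in SB431542 arrays, against 45.2, 43.6 and 41.2 in DMSO arrays. The call of Tfcp2l1 was lost without any single DMSO array or SB431542 replicate 2 (adjusted p = 0.0513 to 0.0779). The second probe of Tfcp2l1 changed by 0.475 (limma adjusted p = 0.0158 with each probe tested on its own). Of 10 embryonic stem cell markers, 1 was higher and 3 were lower, against 5.19% higher and 7.39% lower of all features. Of 7 tested fibroblast markers, 0 were higher and 3 lower, and of 8 primitive endoderm markers, 1 and 1. The lower embryonic stem cell markers include Tdgf1, which is also counted among the Nodal targets. Dcn, 1 of the lower fibroblast markers, was not well above background on any SB431542 array and was at least 1.87-fold lower. Leaving out single DMSO arrays left 1 lower fibroblast marker, Col1a2 (-1.05 ± 0.12). Of the primitive endoderm calls, Pdgfra (0.34) was lost without DMSO replicates 1 and 2, and Col4a1 (-0.25) without any array but SB431542 replicate 3. Without SB431542 replicate 3, Gata4 was lower too (-0.35, limma adjusted p = 0.0207), which makes 2 lower primitive endoderm markers, and the fibroblast marker Pdgfrb was lost (0.0508).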

How the data were processed

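Each scanner file gives an intensity for every spot, background-subtracted and detrended within each array by Agilent Feature Extraction (version 10.7), per the submitters' processing notes and the file headers; they were deposited without normalization between arrays. The flags for spots above background, saturated or outlying are deposited scores of 0 or 1, per the file headers. A further table deposited by the authors holds log2 values, with the same median (5.18) in each column and correlations of 0.99988 or above with the log2 processed signal of the matching array. How it was normalised is unstated in the labels and headers. It served as an alternative.

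Control spots and outlier flags were left out, spots of a probe were averaged as log2 values, and each array's 75th percentile was subtracted. No non-control spot was saturated (0). A probe was kept if at least 3 of 6 arrays read it well above background, and the brightest probe stood for a gene. Accessions were matched without version to RefSeq (GRCm38.p6), which named 27235 probes, with 13 more by a symbol in the file and 28433 without. The array grid uses mm9, so gene coordinates were not taken from that table. Differences were tested with limma 3.58.1 in R 4.3.3 (lmFit, eBayes, two-sided) over all 25899 features, and the steps were tested on simulated data. Files were read with Python 3.11.15. Precision is limited by the small number of arrays. The labels do not state separate cultures for the replicates, and the p-values therefore reflect no more than the variation among these 6 arrays, possibly technical.

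The members and the 12 other lists were chosen with earlier results of these data known. All 10 members are named, and of every other list up to 4 genes with the smallest adjusted p, with exceptions said so. Not every gene the rule takes is described, but all stay in the counts. Alternatives covered scaling by the median, quantile normalization, normexp with an offset of 50, filters, probe averaging, the authors' table, slide, replicate number, an intensity trend and single arrays left out. Normexp used the median spot signal, since the mean signal planned for it is not a column of the files. Blocking on slide or scan is equivalent to leaving out SB431542 replicate 3.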

Additional observations from a re-analysis of the deposited data

How the results depend on the processing

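The numbers of ERK feedback genes past the threshold (1 higher, 1 lower) were the same under every alternative computed, including an adjusted p under 0.01, and their median log2 change ran from -0.001 to 0.06. Of 170 recomputed changes of single members, 162 kept direction and side of the threshold. The other 8 were changes of sign of values never past the threshold, and the cause was not tested. For a gene with 1 probe, the filters, probe handling, replicate block and intensity trend leave the log2 change as it is. Its direction could not change in those settings. Slide as a block repeats the setting without SB431542 replicate 3, so changes of sign found there are counted again. Dusp5 was 0.016 without DMSO replicate 3, within a leave-one-out range of -0.588 to 0.016. Spred2 was 0.00041 when scaled by the median and 0.00048 with slide as a block, within a leave-one-out range of -0.061 to 0.009. Etv4 was 0.043 with slide as a block, within a leave-one-out range of -0.077 to 0.057. Over all features, 3257 changed (1344 higher, 1913 lower). This became 2097 (791 higher) when dim probes were kept and more features tested, 1222 (431 higher, 791 lower) at an adjusted p under 0.01, and 1467 to 2911 (542 to 1235 higher, 925 to 1676 lower) when single arrays were left out, which leaves fewer samples. With the replicate block it was 1567 (545 higher, 1022 lower). Same-numbered arrays of the groups correlated in their deviations at 0.002, 0.072 and -0.058, and differently numbered ones at -0.078 to 0.075. These values show no sign that the numbers pair the samples, but so few arrays cannot exclude a weak pairing. Dusp4 and Dusp6 passed with the replicate block (limma adjusted p = 0.0174 and 0.0288). Of the other called genes named above, Dusp8, Lrig1, Etv1, Map2k6, Mapk13, Tfcp2l1 and Fgfr2 lost the call. So did Ccnd1, Maff, Pdgfra, Pdgfrb, Dcn and Col4a1 (limma adjusted p = 0.0514 to 0.102 for all of these). The median log2 change of all features was 0.021 in the main scaling, 0.039 when scaled by the median and 0.05 with dim probes kept. The split of changed features was 1344 higher and 1913 lower in the main scaling and 1545 and 1782 when scaled by the median. Dusp5 had a log2 change of -0.07 under normexp against -0.29, and the cause was not tested. Among pairs, Dusp5 minus Dusp6 (0.249) was -0.042 without DMSO replicate 1, with a leave-one-out range of -0.042 to 0.571, and Spry2 minus Spry4 (-0.257) was 0.147 without SB431542 replicate 3, with a range of -0.475 to 0.147. Probes not well above background on SB431542 arrays (Fgf5 and Dcn) give only a bound.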
